A study of Drosophila melanogaster with 4 samples.

Results

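The X chromosome of Drosophila melanogaster held 2544 of the 14326 peaks (17.8%) in a list of regions marked by H3K4me1, histone H3 monomethylated at lysine 4, in whole wandering third-instar larvae. All peaks placed on X by the list were taken. Those on XHet, the assembled heterochromatic scaffold of X, are given apart. The mark was mapped by chromatin immunoprecipitation and sequencing (ChIP-seq), with 2 H3K4me1 ChIP samples and 2 input samples, input being DNA of the chromatin without the antibody step. Larvae of all 4 samples were of the strain Y cn bw sp and of unknown sex, so the number of X copies per cell is not known. The labels give every sample the same genotype. Its X-linked part is oc[R3.2] with y[1]. Next come Gr22d[1] and Gr22b[1], CG33964[R4.2], cn[1], and the pair sp[1] and bw[1]. The last part is Rh6[1], GstD5[1] and MstProx[1] with lab[R4.2] and LysC[1]. Whole larvae mix many tissues, and a region marked in few cells cannot be told apart from one marked weakly in many.

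H3K4me1 is found at enhancers, the switches that drive genes from a distance, and on the flanks of active promoters. In Drosophila the methyltransferase Trr, carried by a COMPASS-like complex, places much of it. X differs from the autosomes in dosage: in males the single copy is bound by the MSL complex, which acetylates histone H4 and raises transcription. At 1 end X runs to the telomere, where coordinates are low, and at the other to repeat-rich heterochromatin beside the centromere, where they are high.

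The deposited list gives each peak a start, an end and a score from the peak caller, and nothing per sample. The values below therefore have no replicate error and no test, and the depth behind them is unknown. Spreads marked SD are between windows, and neither windows nor peaks are replicates. Positions are in FlyBase release 5 coordinates, counted from 1. The scale of the score is not stated, so it serves only to order peaks. No gene annotation of this build was used, so regions are named by position.

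Peaks on X covered 4.72 Mb, which is 21.1% of the 22.4 Mb from the first base of the chromosome to the end of its last peak. They made up 21.6% of all sequence under peaks in the list. The autosomal arms 2L, 2R, 3L and 3R together were covered to 17.8%, from 15.1% on 2L to 20.7% on 2R. The median width of X peaks was 968 bp, the quartiles were 404 and 2329 bp, and widths reached from 200 bp to 24.4 kb. The 567 peaks of 2 to 5 kb held the largest part of the covered sequence among the width classes compared, 37.2%, and were 22.3% of peaks. The 195 peaks of 5 kb or wider were 7.67% of the peaks of X and held 34.8% of the covered sequence. Within these, the 44 peaks of 10 kb or wider were 1.73% of peaks and 13.1% of the covered sequence. At the narrow end, 804 peaks under 500 bp were 31.6% of peaks and 5.47% of the covered sequence. Wider peaks had higher scores, with a median of 14.0 among peaks under 500 bp, 58.4 at 1 to 2 kb and 274 at 10 kb or more. Both measures come from the same peak caller.

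X was divided into 90 windows of 250 kb from its first base. The last window holds the 166 kb left up to the end of the last peak, and its share was taken over that length. Covered share ran from 0.187% to 61.8% between windows, a 331-fold range. The median was 19.3%, with quartiles of 10.7% and 30.1% and 10th and 90th percentiles of 4.67% and 39.5%. The mean was 21.0% ± 13.6 (SD, n = 90 windows). There were 23 windows with 30% or more of their sequence under peaks and 10 with less than 5%. No window was wholly without covered sequence. The 10 richest windows, 11.1% of all, held 24.4% of the covered sequence of X, and the 10 poorest held 0.904%.

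**Figure D1:**
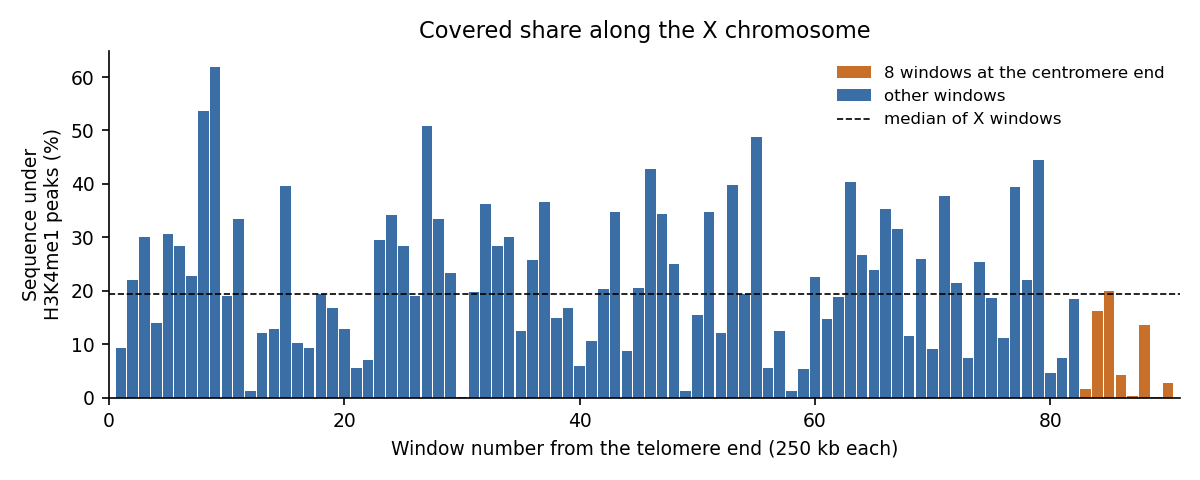
Covered share (%) of each 250 kb window of X, in order from the telomere end on the left to the centromere end on the right; the dashed line is the median of 19.3%. Rich windows of over 40% and poor windows under 5% stand close together along the chromosome, and 5 of the 8 windows at the centromere end, drawn in a second colour, lie under 5%.

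The richest window, X, 2000001 to 2250000, was covered to 61.8% by 51 peaks. Its neighbour on the telomere side, X, 1750001 to 2000000, followed with 53.7%, also under 51 peaks. These adjacent windows formed the richest 500 kb stretch between window borders on X, with 57.8% covered. The longest peak-free stretch inside the first of them was 17.5 kb. The third was X, 6500001 to 6750000, with 50.8% under 61 peaks. These 3 windows were the only ones of the 90 with 50% or more.

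The other windows of the 10 richest were scattered over the chromosome. X, 13500001 to 13750000, was covered to 48.7% and X, 19500001 to 19750000, to 44.5%. X, 11250001 to 11500000, reached 42.8%, and X, 15500001 to 15750000, reached 40.3%. The list ended with X, 13000001 to 13250000 (39.7%), X, 3500001 to 3750000 (39.6%), and X, 19000001 to 19250000 (39.5%). Each of the 10 held between 44 and 61 peaks, against a mean of 28.3 per window over the whole of X. Peaks in these windows had a median width of 1306 bp, and 10.2% of them were 5 kb or wider.

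The 10 poorest windows held 53 peaks in all, from 0 to 15 each, when a peak is counted where its midpoint falls. Their median width was 467 bp, 54.7% of them were under 500 bp, and none reached 5 kb. The lowest share, 0.187%, was in X, 22000001 to 22250000, which held 1 peak. X, 7250001 to 7500000, came next with 0.231% and 2 peaks. X, 21500001 to 21750000, had 0.284% of its sequence covered, all at its low-coordinate edge, and no peak with its midpoint inside. Of the 10, 6 lay near the centromere end, beyond 19.75 Mb. The shares there were 0.187% and 0.284% as given, 1.65% in X, 20500001 to 20750000, 2.77% in the shorter last window, 4.29% in X, 21250001 to 21500000, and 4.71% in X, 19750001 to 20000000. The other 4 lay further inside the chromosome. Beside the window at 7250001 these were X, 12000001 to 12250000 (1.22%), X, 14250001 to 14500000 (1.33%), and X, 2750001 to 3000000 (1.34%).

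Rich and poor windows could lie side by side. Neighbouring windows differed by a median of 13.5 percentage points, and 22 of the 89 neighbouring pairs differed by 20 points or more. The steepest change was between X, 13750001 to 14000000, with 5.64%, and the window before it, X, 13500001 to 13750000, with 48.7%. The next was on the centromere side of the richest window, where X, 2250001 to 2500000 had 19.0%. Another lay between X, 19750001 to 20000000, with 4.71%, and X, 19500001 to 19750000, with 44.5%. Across X the shares of adjacent windows had a correlation of 0.17 over 89 pairs, and those of windows separated by 1 other a correlation of 0.093 over 88 pairs. Peaks that cross a border add to both windows of an adjacent pair.

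Longer stretches on 1 side of the median were few. The windows at or above the median formed 21 runs, of which 10 were single windows and the longest were 5 windows. These longest runs were X, 1000001 to 2250000, with 39.5% covered, and X, 15500001 to 16750000, with 31.5%. The windows below the median formed 22 runs, and the longest of these, also of 5 windows, were both at the centromere end. X, 19750001 to 21000000, had 9.70% of its sequence covered and X, 21250001 to 22416040, had 4.34%. The single window between them, X, 21000001 to 21250000, had 20.0%. Inside the chromosome, X, 13750001 to 14750000, was the poorest run of 4 windows, with 6.21%.

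Windows reached the same share with unlike peaks. Across the 89 windows with a peak midpoint, covered share followed the number of peaks (Spearman's rho = 0.80) more than their mean width (rho = 0.58), while number and width were nearly unrelated (rho = 0.048). The share is the product of number and width apart from peaks that cross a border, so these correlations describe its makeup. Windows singled out after their values were seen show the range. X, 6750001 to 7000000, was covered to 33.5% by only 18 peaks of 4762 bp on average, the highest mean width of any X window with at least 10 peaks. X, 16500001 to 16750000, had a like share of 31.5% from 59 peaks of 1334 bp on average. X, 12500001 to 12750000, resembled the first of these, with 34.7% under 19 peaks of 4561 bp on average. The most crowded window of X, at 9000001 to 9250000, held 63 peaks averaging 1449 bp and was covered to 36.7%.

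**Figure D2:**
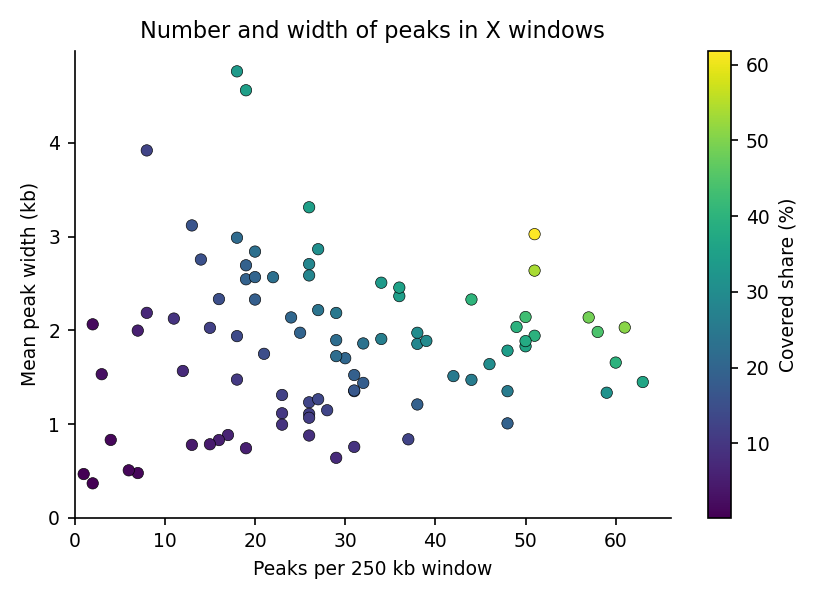
Peaks per window (horizontal axis) against their mean width in kb (vertical axis) for the 89 windows of X with a peak midpoint, coloured by covered share (%). The richest window combined 51 peaks with a mean width of 3026 bp, while windows near 33% ranged from 18 wide peaks to 59 narrow ones.

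The highest-scoring peaks were not all in rich windows. The first, at X, 2178975 to 2203378, was also the widest of X at 24.4 kb, with a score of 527, and made up 15.8% of the covered sequence of the richest window. Of the 10 highest-scoring peaks, 5 lay in the first 4.5 Mb and 4 between 9 and 13.5 Mb. None lay beyond 13.5 Mb, but this rests on the cut at 10. The tenth score was 389, and scores beyond 13.5 Mb reached 387. Some of the 10 stood in windows below the median of X. X, 9470093 to 9479801, with a score of 467, was 26.0% of the covered sequence of a window covered to 14.9%. X, 12466344 to 12477131, with a score of 410, was 28.0% of that of a window covered to 15.4%. The highest-scoring peaks also ranged in width. X, 550661 to 552264, had a score of 408 with a width of only 1.60 kb, which ranked 938 among the peaks of X.

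The 10 widest peaks of X were between 16.7 and 24.4 kb long and shared 3 members with the 10 highest-scoring. A group of 3 fell in the window X, 12500001 to 12750000, at 12553489 to 12574209, 12611588 to 12635551 and 12636299 to 12657601, with widths of 20.7, 24.0 and 21.3 kb. The same window also held a stretch of 92.4 kb without any peak. The widest peak of a poor neighbourhood was X, 14098771 to 14116429, 17.7 kb long with a score of 194. It made up 56.3% of the covered sequence of a window with 8 peaks and 12.5% covered. Its score ranked 230 on X. The outermost peaks of the chromosome were weak and narrow. The last, at X, 22415697 to 22416040, was 344 bp wide with a score of 17.2, and the first, at X, 11645 to 12324, was 680 bp wide with a score of 18.3.

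Peaks separated by 1000 bp or less were joined. Whether joined peaks are pieces of 1 marked neighbourhood or separate sites was not tested. Of the 2543 gaps between neighbouring peaks of X, 1624 (63.9%) were this short, and the median gap was 630 bp. The 2544 peaks formed 920 joined regions with a median length of 3.33 kb, quartiles of 1.23 and 7.05 kb and a maximum of 48.6 kb. Together they spanned 5.35 Mb, or 23.9% of X, and 88.3% of that span lay under peaks. Of the 920 regions, 313 (34.0%) were single peaks with a median length of 0.754 kb, and these held 10.2% of the covered sequence. The 460 regions of 2 to 4 peaks held 48.1%. The 147 regions of 5 or more peaks were 16.0% of regions and held 41.7%, with a median length of 14.1 kb. Regions of 20 kb or longer numbered 50 and held 27.2% of the covered sequence of X.

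**Figure D3:**
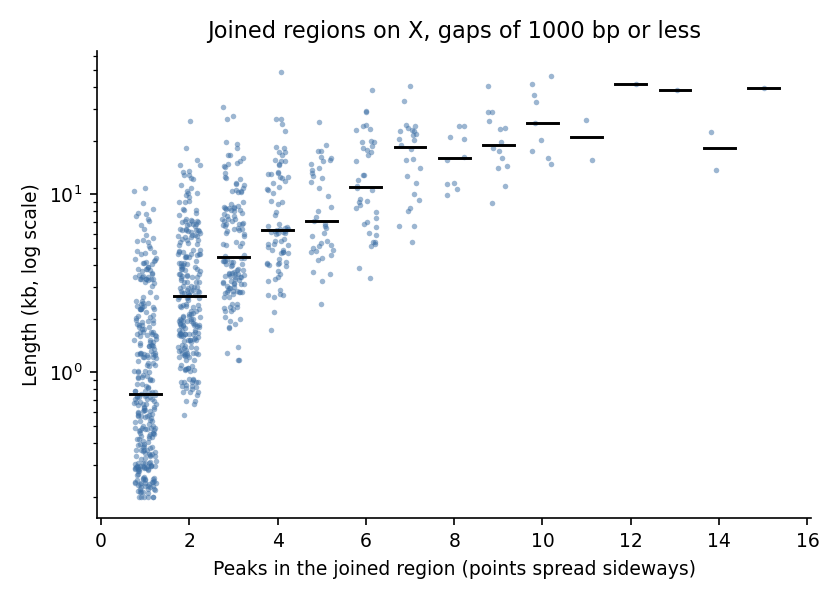
Length in kb (log scale) of each of the 920 joined regions of X against the number of peaks it holds; short black lines are medians. Single peaks have a median of 0.754 kb, and the longest region, at 48.6 kb, holds 4 peaks, while the region with the most peaks, 15, is 39.7 kb long.

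The longest joined region of X, 12609032 to 12657601, was 48.6 kb long with 4 peaks, and 97.5% of it was under peaks. It holds the second and the third widest peaks of X, which lie side by side. The second, X, 13263959 to 13310305, was 46.3 kb long with 10 peaks, and stood in a window covered to 19.3%, about the median of X. The third, X, 19178689 to 19220500, was 41.8 kb long with 12 peaks. The fourth, X, 6546799 to 6588440, was 41.6 kb long with 10 peaks. The fifth, X, 6868516 to 6909151, was 40.6 kb long with 7 peaks. Regions with many peaks were not always strong. X, 367231 to 406906, had the most peaks, 15, over 39.7 kb, and its best score was 296. X, 5901673 to 5915316, packed 14 peaks into 13.6 kb with a best score of only 54.5. Of that region 22.8% lay between peaks.

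Much of X lay in long stretches without a peak. The 91 gaps of 50 kb or longer were 3.58% of gaps and took 10.6 Mb, or 47.2% of the chromosome. Of these, 39 were 100 kb or longer and took 30.4% of X. Peaks bordering the longest gaps were of unlike strength. X, 14136697 to 14474831, a gap of 338 kb, lay between peaks with scores of 119 and 142. X, 7234629 to 7498981, a gap of 264 kb, lay between peaks with scores of 20.0 and 16.1, which are 318 and 272 bp wide. The 3 longest, of 375, 366 and 346 kb, were all beyond 20.5 Mb. How reads with several possible positions were treated is not given in the sources used here. In such gaps a lack of the mark and a lack of placed reads cannot be told apart.

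From the telomere end to the centromere end, covered share was nearly level until the last stretch. In 5 parts of 18 windows each, the mean share was 23.9% ± 15.9 in the first part, 23.0% ± 12.6 in the second, 21.9% ± 12.5 in the third, 21.8% ± 13.3 in the fourth and 14.3% ± 12.8 in the fifth (SD, n = 18 windows each). The means of the first 4 parts lay within 2.04 percentage points. The SDs describe single windows, not means of 18, and are also larger than the distance of the fifth mean from any other. In the fifth part, 6 of 18 windows were under 5%, against 1 in each of the others.

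The lower share of the fifth part went with fewer peaks and, by less, narrower ones. It held 21.7 ± 16.6 peaks per window (SD, n = 18 windows), against 27.7 to 31.4 in the other parts. The median width was 792 bp, against 953 to 1037 bp, and the median score 30.5, against 34.7 to 40.1. The 8 windows at the centromere end, the poorest stretch of this part, did not share the low score. Their peaks had a median score of 41.0 and a median width of 865 bp. Peaks of 5 kb or wider were 5.37% of the peaks there, 6.68% in the fourth part and 8.22% to 9.11% in the first 3. Joined regions, in contrast, were about as long as elsewhere. Their median length was 3.45 kb in the fifth part, against 3.19 to 3.47 kb in the others, but there were only 141 of them, against 183 to 204. Gaps of 100 kb or longer with their middle in the fifth part took 2192 kb, against 719 kb for the first part and 1154 to 1544 kb for parts 2 to 4.

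Set side by side, the 45 windows on the centromere side averaged 19.5% ± 13.7 and the 45 on the telomere side 22.5% ± 13.6 (SD, n = 45 windows each). The difference was -3.05 percentage points. Spearman's rho between share and order from the telomere end was -0.20 over the 90 windows. The 8 windows at the centromere end, about 2 Mb, averaged 7.38% ± 7.96 (SD, n = 8 windows), and the other 82 averaged 22.3% ± 13.3 (SD, n = 82 windows). Without them the difference was -0.67 percentage points and rho was -0.049, and without 8 windows at each end the difference was 0.39.

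The last 8 windows were not evenly poor. X, 21000001 to 21250000, was covered to 20.0% by 20 peaks with a median width of 1842 bp and scores of up to 307. X, 20750001 to 21000000, had 16.2% and X, 21750001 to 22000000, had 13.7%, while the remaining 5 were under 5%. The 79 peaks with midpoints there had a median width of 865 bp and a median score of 41.0, against 973 bp and 36.4 for the 2465 others. At the opposite end the first window, X, 1 to 250000, was itself below the median, with 9.38% under 31 peaks of 375 bp median width. The 8 windows at the telomere end averaged 26.4% ± 13.4 (SD, n = 8 windows).

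**Figure D4:**
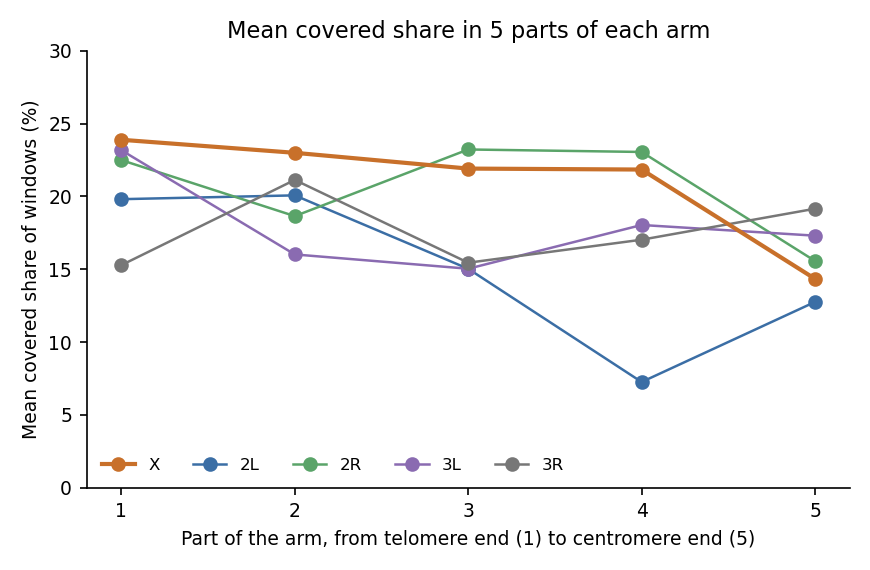
Mean covered share (%) of the windows in each of 5 parts, from the telomere end (1) to the centromere end (5), for X and the autosomal arms 2L, 2R, 3L and 3R. X runs nearly level from 23.9% to 21.8% over parts 1 to 4 and has 14.3% in part 5. The mean of 2R is also lowest in part 5, at 15.6% after 23.1% in part 4, while 2L, 3L and 3R are lowest in other parts.

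The low share at the centromere end can be set beside the autosomal arms, divided by the same windows. The 8 windows nearest the centromere differed from the rest of their arm by -14.9 percentage points on X. The same difference was -9.18 for 2L, -19.1 for 2R, -3.66 for 3L and 2.49 for 3R. X thus lay within the range of the autosomal arms. By parts, 2R was most like X, with a mean of 23.1% in the fourth and 15.6% in the fifth. On 2L low shares were not limited to the last part: the mean was 7.26% in the fourth of its parts and 12.8% in the fifth.

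X windows had a median covered share of 19.3% and the 381 autosomal windows one of 16.7%, a difference of 2.68 percentage points. Single arms had 13.3% (2L), 20.9% (2R), 16.6% (3L) and 15.8% (3R), so that X was below 2R. Windows of 40% or more were 7.78% of X windows and 2.89% of autosomal ones, with 4.71% on 2R, the highest autosomal arm. Windows of 30% or more were 25.6% of X windows and 13.6% of autosomal ones, but 2R had 24.7%, close to X, while 2L, 3L and 3R had 7.61%, 9.78% and 13.4%. Windows under 5% were 11.1% of X windows and 14.2% of autosomal ones. Here too the arms differed, with 21.7% on 2L and 16.5% on 2R, above X, and 10.9% on 3L and 8.93% on 3R, below it. The SD over windows was 13.6 points on X, against 9.84 to 12.5 points on the autosomal arms. Relative to the mean, that of X was 0.65, inside the autosomal range of 0.56 to 0.72.

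Joined regions of X were longer than those of each autosomal arm. Their median length was 3.33 kb on X and 2.33 kb over the autosomal arms, which ranged from 2.20 to 2.40 kb. The median number of peaks per joined region was 2 on X and on each autosomal arm. On X 18.4% of joined regions were 10 kb or longer, against 11.5% on the autosomal arms (10.4% to 12.9%). Single peaks were 34.0% of joined regions on X and 40.9% on the autosomal arms (40.7% to 41.0%). X also had fewer of them, with 41.0 joined regions per Mb, against 47.5 on the autosomal arms and 42.6 to 52.1 on single ones. These are differences between 1 chromosome and 4 arms in 1 list, and none was tested.

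**Figure D5:**
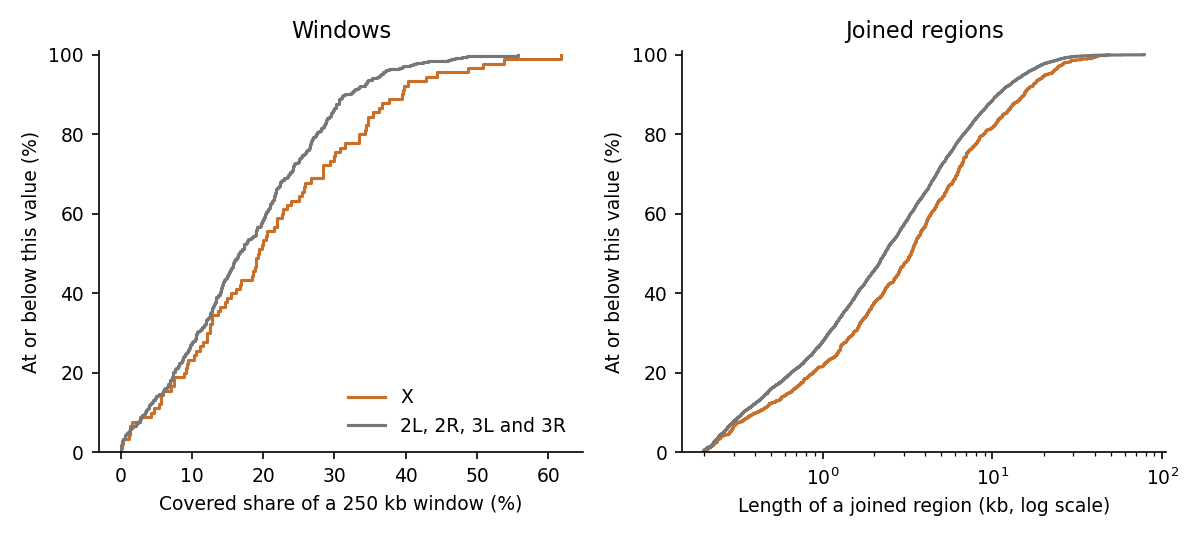
Share (%) of windows at or below each covered share (left) and of joined regions at or below each length in kb (right, log scale), for X and for 2L, 2R, 3L and 3R together. The X curve lies to the right for joined regions, with medians of 3.33 kb on X and 2.33 kb on the autosomal arms, and 25.6% of X windows and 13.6% of autosomal windows (24.7% on 2R alone) are covered to 30% or more.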

How the data were processed

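The deposited file is 1 peak list for the series of 4 samples. Per the file headers, positions are in FlyBase release 5 and the source is given as MACS. Tools listed in the submitters' processing notes are BWA, MACS2 and CASAVA (1.7.0.2, 1.7.0.3), with the build BDGP5. How the caller was set and samples were pooled is not given in the sources used here. The score of each peak is as the authors deposited it, on an unstated scale. Starts were read as counted from 0, since the list holds peaks that start at 0, and widths are end minus start.

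Windows of 250 kb ran from the first base of each arm to the end of its last peak, with a last window kept if it was at least 50% of that size. Peaks were counted by midpoint. Neighbouring peaks with gaps of 1000 bp or less were joined. Coverage and joining were tested on simulated intervals against a base-by-base count. Python 3.11.15 and numpy 2.4.6 were used, with scipy 1.17.1 for Spearman's rho.

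The regions named are the 10 highest-scoring and 10 widest peaks, the 10 most and 10 least covered windows, the 5 longest joined regions and the 5 with most peaks, the 5 longest gaps and the outermost peaks. A few of each list are described. Other windows, runs and steps were chosen after their values were seen. Members and measures were chosen with earlier results of these data known. No sequence and no gene is given, because no genome or annotation of release 5 was used here.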

Additional observations from a re-analysis of the deposited data

How the results depend on the processing

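Of 33 alternative values for 7 results, 25 kept their sign and stayed within 1.5 times of the value reported, 6 moved further and 1 changed sign. The last is in another unit: the centromere side minus the telomere side was -4.18 peaks per window, of the same sign as the covered share. The results that are shares or counts, not differences, cannot change sign, so for them only the size of the change was compared. Joined regions of X numbered 920 at gaps of 1000 bp or less, 1444 at 500 bp or less, and 502 in the upper 25% of scores, where fewer peaks are left by construction. The difference between the centromere and telomere sides, -3.05 percentage points, was -1.26 in the upper 25% of scores, a change whose cause was not tested. It was -0.67 without the 8 windows at the centromere end, which averaged 7.38%. Without 8 windows at each end it was 0.39, where the 8 at the telomere end, which averaged 26.4%, were left out as well. X minus the autosomal arms in median window share, 2.68 percentage points, was 1.44 without 2L, the autosomal arm with the lowest median (13.3%), and 4.95 in the upper 25% of scores; the cause of the second was not tested. The richest window changed with the window grid. Windows of 500 kb from the first base put it at X, 6500001 to 7000000 (42.1%). Their borders split the richer stretch X, 1750001 to 2250000 (57.8%), which has the same length. Windows of 100 kb put it at X, 19500001 to 19600000 (65.1%). At 250 kb, borders shifted by 100 kb gave X, 1850001 to 2100000 (53.1%), which overlaps the window reported, and the upper 25% of scores gave the same window as the full list (46.4%). No paired analysis was possible because the list gives no value per sample, and no replicate could be left out. Without read numbers, no limit set by sequencing depth can be given.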

Other observations

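XHet held 6 peaks, all between its positions 60447 and 78565. The widest was 1908 bp long with a score of 93.7, and the other 5 were 200 to 620 bp wide with scores of 7.73 to 22.1.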
